A study of Mus musculus with 8 samples.

Results

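Heart muscle genes were present at widely different levels in RNA from whole aortic tissue, and 10 of them were followed here in all 8 libraries, out of 35896 genes in the count table and 17182 genes that passed the filter on low counts. All 10 passed that filter. They fall into 5 atrial genes (Myh6, Myl7, Myl4, Nppa and Sln) and 5 general cardiac genes (Actc1, Tnnt2, Tnni3, Mybpc3 and Myh7). The 10 were selected on these same measurements, as known heart or pulmonary vein muscle genes whose level was seen to vary between libraries, so their levels and fold changes are given as a description.

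The libraries came from aortas of male C57BL6 mice. AngII (angiotensin II, a peptide hormone that raises blood pressure) was delivered by osmotic minipump at 2.8 mg/kg/d for 2 weeks, starting at 11 weeks of age. Mice of the AngII group were killed when the infusion ended, those of the AngII+2W group 2 weeks after it and the AngII+3W group 3 weeks after it, while CTRL mice were untreated littermates whose labels do not give the time of sacrifice. Each group had 2 libraries, each library held pooled tissue of 2 mice (16 mice in all), and a p-value below therefore measures the spread between 2 pools. Counts summed to between 18130441 and 21498200 per library.

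Contraction of heart muscle depends on sarcomeres, in which myosin filaments pull on actin filaments under the control of the troponin complex. Atrial muscle uses its own myosin light chains, and it makes atrial natriuretic peptide, a hormone that relaxes vessels and promotes sodium excretion. The wall of the aorta is built of smooth muscle, which uses other actin and myosin genes. A sleeve of heart muscle that continues from the left atrium surrounds the pulmonary veins of the mouse, and the ascending aorta leaves the heart itself.

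Windows from 250 bases before to 50 bases after the annotated starts of the atrial and general cardiac genes were searched for motifs. RefSeq windows on GRCm38.p6 matched 9 of the 10 genes, with no entry for Sln. Motifs were searched on both strands, with no overlap among the matches found in members: the CArG box, which serum response factor binds, the MEF2 box, a GATA motif (AGATAA) and a TATA motif (TATAAA). The CArG box was in the windows of Myl7 and Actc1 and in 1.63% of all 32851 promoter windows of 300 bases, and the MEF2 box was in that of Mybpc3 and in 1.86% of all. AGATAA was in the window of Tnnt2 and in 11.2% of all. TATAAA was in those of Myh6, Nppa and Actc1 and in 13.6% of all. In Myh6 and Actc1 it began 1 and 33 bases after the RefSeq start, respectively. The 250 bases before the RefSeq start are shown for the atrial light chain gene Myl7 (chr11:5898783-5899032, reverse strand), the cardiac actin gene Actc1 (chr2:114052876-114053125, reverse strand), the myosin-binding protein gene Mybpc3 (chr2:91117894-91118143, forward strand) and Nppa (chr4:148000472-148000721, forward strand), the atrial gene that departed from the others. Capitals mark the CArG box in Myl7 and Actc1, the MEF2 box in Mybpc3 and TATAAA in Nppa.
Myl7: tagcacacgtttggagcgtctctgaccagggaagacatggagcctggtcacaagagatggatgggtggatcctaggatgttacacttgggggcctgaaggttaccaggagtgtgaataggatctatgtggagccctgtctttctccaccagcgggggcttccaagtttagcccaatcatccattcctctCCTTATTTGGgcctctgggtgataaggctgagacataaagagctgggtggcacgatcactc
Actc1: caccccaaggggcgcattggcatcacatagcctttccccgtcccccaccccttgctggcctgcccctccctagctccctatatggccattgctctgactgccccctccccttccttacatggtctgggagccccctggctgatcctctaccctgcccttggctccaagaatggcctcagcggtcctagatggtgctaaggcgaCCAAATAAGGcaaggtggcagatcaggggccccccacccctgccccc
Mybpc3: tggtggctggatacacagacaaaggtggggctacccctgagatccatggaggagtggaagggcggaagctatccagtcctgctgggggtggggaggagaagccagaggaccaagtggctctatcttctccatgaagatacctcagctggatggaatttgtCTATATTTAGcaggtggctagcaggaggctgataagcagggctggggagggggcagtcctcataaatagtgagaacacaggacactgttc
Nppa: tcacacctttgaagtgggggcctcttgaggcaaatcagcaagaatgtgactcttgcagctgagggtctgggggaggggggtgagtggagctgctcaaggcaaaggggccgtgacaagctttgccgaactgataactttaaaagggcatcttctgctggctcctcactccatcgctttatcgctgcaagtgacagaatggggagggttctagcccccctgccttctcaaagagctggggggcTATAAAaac
The CArG box began 61 bases before the RefSeq start of Myl7 and 47 bases before that of Actc1. A match is a description of the letters and not a site of binding. The RefSeq starts of Myh6, Actc1 and Tnni3 lie inside the genes as the GENCODE annotation used for positions places them. Tnnt2 and Myh7 each had a further RefSeq start, which also lies inside the gene and whose window was also searched. The window shown for Actc1 therefore lies within the gene, downstream of its GENCODE start at 114053548 on the reverse strand.

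Levels are given in CPM (counts per 1000000) with TMM-normalized library sizes, and positions are those of the genes on GRCm38. Myh6 is the alpha myosin heavy chain of the mouse heart (chr14:54941921-54966927, reverse strand, 39 exons). It was placed with the atrial genes, although the adult mouse ventricle also uses it. Its level was 2817 and 1263 CPM in the CTRL libraries, 775 and 449.9 CPM (AngII), 94.4 and 1.88 CPM (AngII+2W), and 3340.0 and 197 CPM (AngII+3W). The highest library exceeded the lowest 1777-fold, and the 2 libraries of AngII+3W held the highest and the sixth level of the 8.

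Myl7 encodes the atrial regulatory myosin light chain (chr11:5896637-5898782, reverse strand, 7 exons). It stood at 278 and 120.5 CPM (CTRL), 57.3 and 39.7 CPM (AngII), 9.15 and 0.107 CPM (AngII+2W), and 327 and 21.5 CPM (AngII+3W), and the lowest of these values is 2 counts. Myl4, the atrial essential light chain (chr11:104550663-104595753, forward strand, 8 exons), was measured at 324 and 153 CPM (CTRL), 87.6 and 47.9 CPM (AngII), 11.2 and 2.09 CPM (AngII+2W), and 338 and 23.2 CPM (AngII+3W). Both light chains put the libraries in the same order as Myh6.

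Sln encodes sarcolipin, an inhibitor of the calcium pump that in the mouse heart is largely atrial (chr9:53850164-53854560, forward strand, 2 exons). Its level was 57.0 and 23.9 CPM (CTRL), 10.4 and 7.91 CPM (AngII), 2.01 CPM and 0 counts (AngII+2W), and 64.0 and 4.30 CPM (AngII+3W). The order of the libraries was again that of Myh6, and a count of 0 in AngII+2W replicate 2 allows up to 3 counts, or 0.164 CPM of the library total.

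Nppa encodes the precursor of atrial natriuretic peptide (chr4:148000722-148002079, forward strand, 3 exons). It was at 104 and 65.3 CPM (CTRL), 13.4 and 69.0 CPM (AngII), 2.85 and 0.161 CPM (AngII+2W), and 113 and 6.29 CPM (AngII+3W). Unlike the other atrial genes, Nppa was higher in AngII replicate 2 than in CTRL replicate 2, so that CTRL and AngII overlapped.

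Among the general cardiac genes, Actc1 (cardiac alpha actin, chr2:114047282-114053548, reverse strand, 7 exons) was at 617 and 246 CPM (CTRL), 190.2 and 100.1 CPM (AngII), 13.7 and 1.99 CPM (AngII+2W), and 600.1 and 37.5 CPM (AngII+3W). Tnnt2, which encodes the cardiac troponin T that ties the complex to tropomyosin (chr1:135836354-135852260, forward strand, 16 exons), was at 562 and 233 CPM (CTRL), 125 and 70.9 CPM (AngII), 20.7 and 1.40 CPM (AngII+2W), and 652 and 43.9 CPM (AngII+3W). Actc1 was the only one of these general genes to be slightly higher in CTRL replicate 1 than in AngII+3W replicate 1.

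Tnni3, the inhibitory subunit of the cardiac troponin complex (chr7:4518305-4524229, reverse strand, 8 exons), was at 203 and 94.2 CPM (CTRL), 53.9 and 30.7 CPM (AngII), 6.72 and 0.805 CPM (AngII+2W), and 229 and 14.1 CPM (AngII+3W). Mybpc3, the cardiac myosin-binding protein C (chr2:91118144-91136516, forward strand, 35 exons), was at 129 and 66.8 CPM (CTRL), 42.4 and 25.1 CPM (AngII), 4.06 and 0.483 CPM (AngII+2W), and 154 and 11.9 CPM (AngII+3W). Both followed the library order of Myh6.

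Myh7, the beta myosin heavy chain used by the fetal heart and by slow skeletal muscle, lies 3756 bases from Myh6 on the same strand (chr14:54970684-54994626, reverse strand, 41 exons). It was at 3.51 and 2.21 CPM (CTRL), 1.73 and 1.23 CPM (AngII), 1.40 and 2.15 CPM (AngII+2W), and 4.30 and 1.83 CPM (AngII+3W). Of the 10 genes it had the narrowest range, 3.49-fold over the libraries, and in AngII+2W replicate 2 it stood at 0.345 CPM per kilobase of transcript against 0.307 for Myh6. The principal transcripts of Myh6 and Myh7 are 91.7% identical over 94.9% of the Myh6 transcript, and Salmon divides shared reads between them by estimate, so that the 26 to 80 counts of Myh7 are uncertain.

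**Figure D1:**
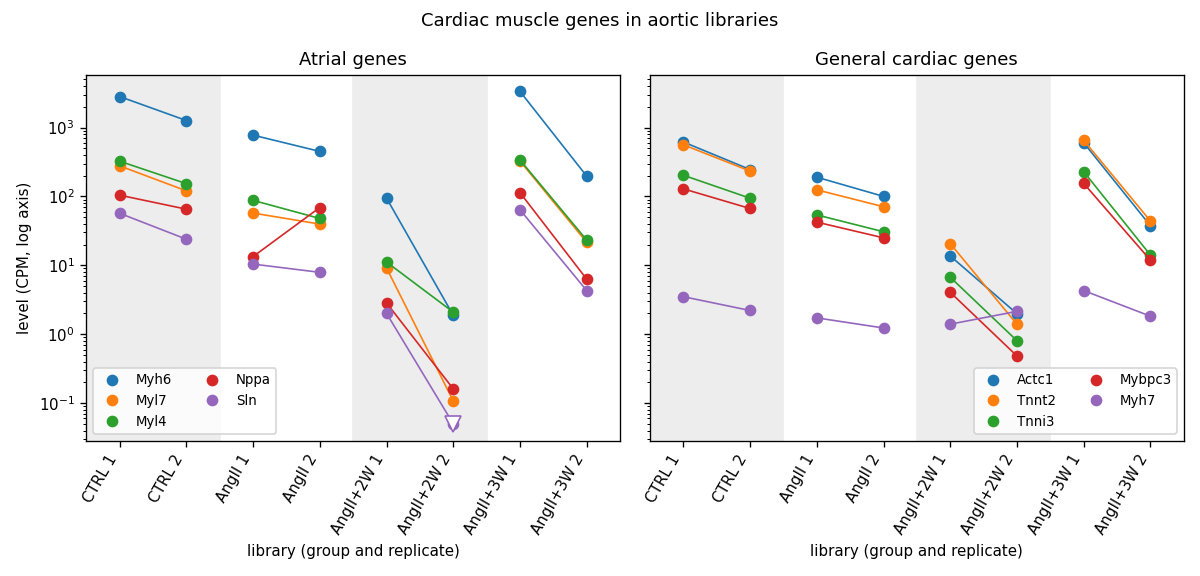
Levels of the 5 atrial genes and the 5 general cardiac genes in CPM (log axis) in each of the 8 libraries, with a line between the 2 replicates of a group and an open triangle for Sln at 0 counts (drawn at the lower edge). Myh6 ran from 1.88 to 3340.0 CPM, while Myh7 stayed between 1.23 and 4.30 CPM.

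Seen per kilobase of the principal transcript, which allows genes to be compared, the cardiac genes fell into tiers within a library. In CTRL replicate 1, Myl7, Tnnt2 and Myh6 had close levels of 471, 469 and 461 CPM per kb, followed by Actc1 at 419 and Myl4 at 344 CPM per kb. Tnni3 was at 223, Nppa at 121, Sln at 43.2 and Mybpc3 at 31.0 CPM per kb, and Myh7 was at 0.563 CPM per kb. Acta2, the smooth muscle actin of the vessel wall, was at 1502 CPM per kb in the same library. In AngII+3W replicate 1 Acta2 was at 172 CPM per kb, below Myl7 at 554 and Myh6 at 546 CPM per kb.

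The 10 genes together held 0.498% of the counts of CTRL replicate 1 (95% Wilson interval 0.495 to 0.501%) and 0.230% of those of CTRL replicate 2. The share was 0.134% and 0.0882% (AngII), 0.0166% and 0.00113% (AngII+2W), and 0.540% and 0.0371% (AngII+3W). Intervals cover counting error only. The libraries of AngII+3W held the highest and the sixth highest share of the 8. In bulk tissue, fewer heart muscle cells and less RNA per cell cannot be told apart.

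Each group was compared with CTRL in 1 model over all 8 libraries with edgeR's quasi-likelihood test and Benjamini-Hochberg adjustment (FDR). No member passed the FDR threshold of 0.05 in the AngII group, where 5.1% of all genes did, in AngII+2W, where 0% did, or in AngII+3W, where 0.285% did. Nothing is read from these counts, since the genes were chosen for their variation in the same libraries. At an unadjusted p below 0.05 there were 0 of the 10 in AngII (20.2% of all genes), 9 in AngII+2W (10.7%) and 0 in AngII+3W (12.5%). DESeq2 called 0 in AngII (9.12% of all genes), 6 in AngII+2W (2.06%) and 0 in AngII+3W (3.35%). Ranges of CPM did not overlap between the 2 groups for 9 members in AngII (all but Nppa), against 49.2% of all genes in either direction, for 10 in AngII+2W (43.8%) and for 0 in AngII+3W (38.1%). The 3 comparisons share the CTRL libraries. In the direct comparison of AngII+3W with AngII 0 members passed (0 at an unadjusted p below 0.05), where 1.61% of all genes did.

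The fitted log2 fold changes had the same sign in AngII and in AngII+2W for every member. The median over the 5 atrial genes was -1.82 (AngII), -5.40 (AngII+2W) and -0.24 (AngII+3W), and over the 5 general cardiac genes it was -1.57, -5.28 and -0.24. Over all 17182 genes these medians were -0.0085, -0.00011 and 0.028. For Myh6 the log2 fold change was -1.74 (SE 1.53) in AngII, -5.40 (SE 1.80) in AngII+2W and -0.21 (SE 1.49) in AngII+3W. The AngII+3W value is the mean of 2 unlike libraries, and Myh6 would be at -3.38 there without replicate 1 and at 0.66 without replicate 2. Without AngII+3W replicate 2, 9 of the members (all but Myh7) turned from negative to positive in this comparison, and 8 of them (all but Nppa) did so without CTRL replicate 1. Myh7 turned from positive to negative without CTRL replicate 2 and without AngII+3W replicate 1.

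**Figure D2:**
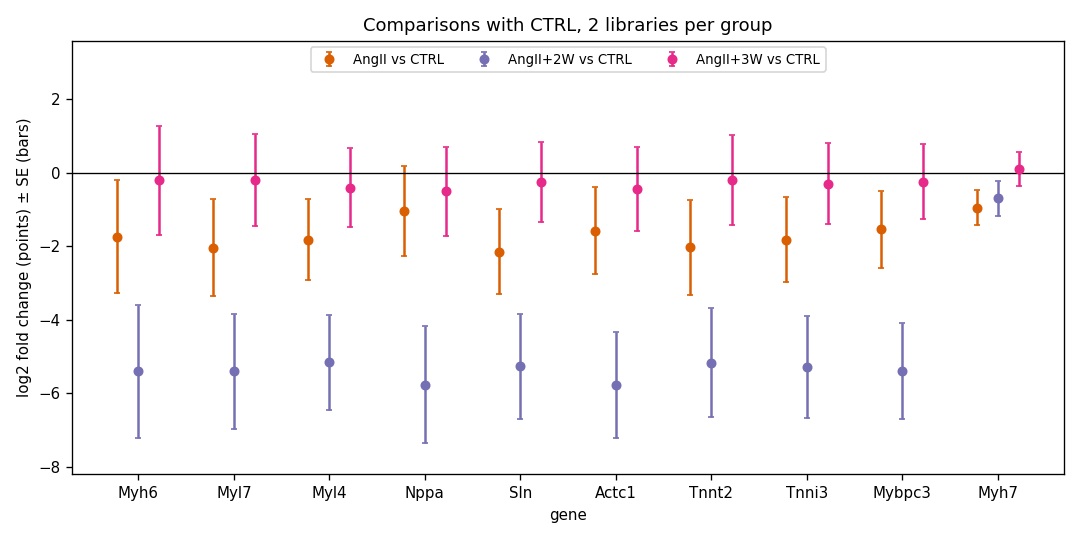
Log2 fold change of each of the 10 genes against CTRL (points) with its standard error (bars) in AngII, AngII+2W and AngII+3W, with 2 libraries in each group. In AngII+2W 9 of the 10 points sit between -5.77 and -5.16 and Myh7 at -0.69, and in AngII+3W the points sit between -0.50 and 0.10.

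To see whether the genes kept their proportions, the counts of each were divided by those of Myh6 in the same library. This ratio compares libraries for 1 gene, and not genes with each other. AngII+2W replicate 2 was set aside because it held 35 Myh6 counts, which leaves 7 libraries. Tnni3 was the steadiest member, with 6.83 to 7.46 counts per 100 Myh6 counts, a 1.09-fold range over libraries with 2023 to 62137 Myh6 counts. Myl4 stayed between 10.1 and 12.1 (1.199-fold), Mybpc3 between 4.30 and 6.04 (1.40-fold), Tnnt2 between 15.8 and 22.3 (1.42-fold), Myl7 between 7.40 and 11.0 (1.48-fold), Sln between 1.34 and 2.19 (1.63-fold) and Actc1 between 14.5 and 24.5 (1.69-fold). Mb, the myoglobin gene and not a member, was as steady, at 10.3 to 11.5 counts per 100 Myh6 counts (1.12-fold).

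Nppa and Myh7 did not keep their proportion. Myh7 ran from 0.125 to 1.48 counts per 100 Myh6 counts, an 11.9-fold range. Nppa ran from 1.73 in AngII replicate 1 to 15.3 in AngII replicate 2, an 8.89-fold range within 1 group, and stood between 3.02 and 5.17 in the other 5 libraries. Set against the other 4 atrial members, Nppa had 1.44 counts per 100 in AngII replicate 1 (95% exact binomial interval 1.26 to 1.63) and 12.7 in AngII replicate 2 (11.98 to 13.4), with 3.00 and 4.18 (CTRL), 2.44 and 3.95 (AngII+2W), and 2.79 and 2.56 (AngII+3W). The value of 3.95 rests on 3 Nppa counts, with an interval of 0.796 to 11.98. The 2 AngII libraries had the lowest and the highest ratio of the 8, with no common direction against CTRL. Myh6 had 14360 and 9494 counts in them.

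**Figure D3:**
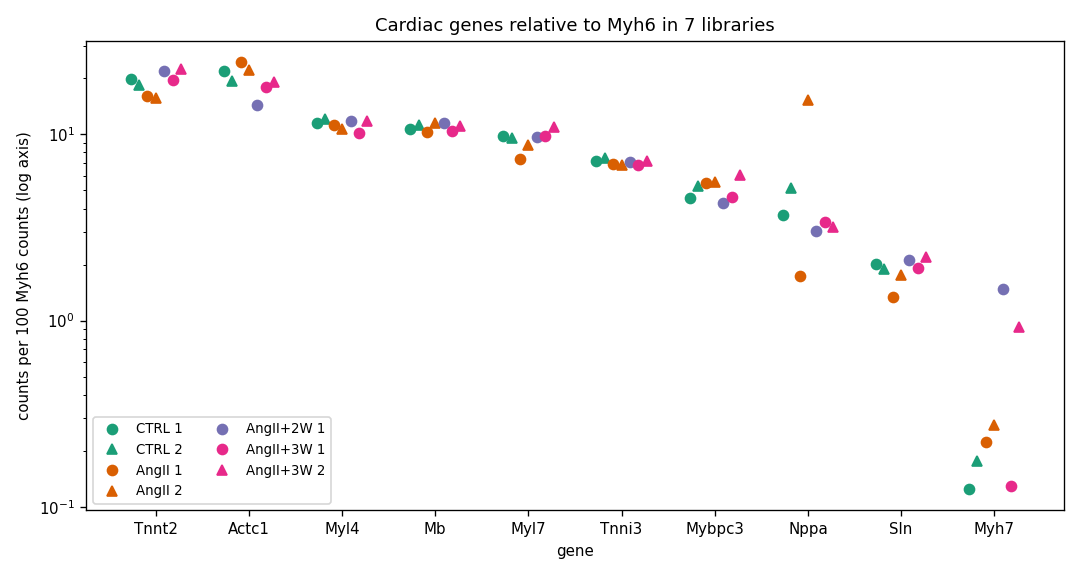
Counts of 9 of the genes and of Mb per 100 Myh6 counts (log axis) in 7 libraries (all but AngII+2W replicate 2), with circles for replicate 1 and triangles for replicate 2. Tnni3 and Mb lie within narrow bands, while Nppa spans 1.73 to 15.3 between the 2 AngII libraries and Myh7 spans 0.125 to 1.48.

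Summed counts of the atrial over the general cardiac genes gave a ratio of 2.36 and 2.53 (CTRL), 2.29 and 2.69 (AngII), 2.57 in AngII+2W replicate 1, and 2.55 and 2.31 (AngII+3W). Only AngII+2W replicate 2 lay outside this range, at 0.622. That library held 79 counts of the atrial genes and 127 of the general genes, and 40 of the latter were Myh7. It also held 39 counts of Myl4, 37 of Actc1 and 26 of Tnnt2 beside 35 of Myh6, 3 of Nppa, 2 of Myl7 and 0 of Sln. The Actc1 transcript is 82.6% identical to that of Acta2 over 77.1% of its length, and that of Myl4 is 76.5% identical to that of Myl3 over 56.8%. Whether similar transcripts account for part of these counts was not tested.

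Other genes that distinguish heart chambers were examined in the same libraries. The ventricular light chain gene Myl2 had 10 to 37 counts in every library, and the ventricular transcription factor Irx4 had 0 counts in all 8, which allows up to 3 counts in each. Per kilobase, Myl2 stood at 0.548 CPM in CTRL replicate 1 against 471 for Myl7. Myl3, which ventricle and slow skeletal muscle share, had 16 to 215 counts, and its 3 highest counts were 215, 185 and 86 in the CTRL libraries and AngII replicate 1. In AngII+3W replicate 1, where Myh6 was highest, Myl3 had 74 counts. Kcnip2, also on the ventricular list, had 80 and 59 counts (CTRL), 19 and 20 (AngII), 12 and 11 (AngII+2W), and 88 and 10 (AngII+3W). It was highest in AngII+3W replicate 1. Pearson's r with the mean log2 CPM of the members was 0.827 for Kcnip2, 0.870 for Myl3 and -0.297 for Myl2. The 2 AngII+2W libraries lay farthest from the median of that mean. Without them r was 0.985 for Kcnip2, 0.768 for Myl3 and 0.271 for Myl2. The 4 ventricular genes summed to between 0.000252% and 0.00145% of counts.

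Within the atrial list fixed beside the members, Kcnj3, a subunit of the acetylcholine-activated potassium channel, had an r of 0.987 with their mean. Its counts were 1870 and 582 (CTRL), 258 and 193 (AngII), 63 and 5 (AngII+2W), and 2430 and 99 (AngII+3W). Mybphl, a myosin-binding protein related to Mybpc3, had 839 and 396 counts (CTRL), 199 and 140 (AngII), 38 and 2 (AngII+2W), and 884 and 52 (AngII+3W). Bmp10, a growth factor of the right atrium, had 1 count in AngII+3W replicate 2 and 0 in every other library. Kcnj3 and Mybphl were highest in AngII+3W replicate 1. Stard10, a lipid-binding protein, had an r of 0.716, with 999 and 566 counts (CTRL), 288 and 197 (AngII), 254 and 237 (AngII+2W), and 1002 and 253 (AngII+3W). The list was not uniform, and r was 0.938 for Kcnj5, the partner subunit of Kcnj3, 0.851 for Fgf12 and 0.533 for the transcription factor Shox2. Kcna5, a voltage-gated potassium channel, had an r of -0.634 and was highest in AngII+2W replicate 2, at 22.9 CPM against 11.7 to 19.2 CPM in the other libraries. These values lean on the 2 AngII+2W libraries. Without them r was 0.003 for Kcna5, 0.838 for Shox2, 0.910 for Stard10, 0.974 for Fgf12, 0.978 for Kcnj5 and 0.986 for Kcnj3.

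The natriuretic peptide pathway was followed from hormone to receptor. Nppb, the gene of the related brain natriuretic peptide, had 0 to 20 counts. Corin, the protease that activates atrial natriuretic peptide in heart muscle, had 883 and 286 counts (CTRL), 165 and 108 (AngII), 28 and 0 (AngII+2W), and 1101 and 37 (AngII+3W), and it put the libraries in the order of Myh6. The receptors had other values. Npr1, the receptor through which the peptide raises cyclic GMP, was at 247 and 241 CPM in CTRL and 147 and 142 CPM (AngII), and it was lower in AngII by edgeR (log2 fold change -0.75, SE 0.170, FDR 0.0496). Npr3, the clearance receptor, was at 83.0 and 84.3 CPM in CTRL and 44.1 and 31.9 CPM in AngII and was also lower (log2 fold change -1.14, SE 0.196, FDR 0.0228). Of the 6 genes of this list that were tested, these 2 passed in AngII, both lower, where 5.1% of all genes did in either direction, and 0 passed in AngII+2W (0% of all genes) and in AngII+3W (0.285%). At an unadjusted p below 0.05 there were 4 in AngII+2W (10.7% of all genes) and 1 in AngII+3W (12.5%).

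Genes whose pattern was most like that of the 10 were ranked by Pearson's r between their log2 CPM and the mean log2 CPM of the 10 over the 8 libraries, which is a description in points that share their libraries and their depth. The 12 genes at the top had r from 0.993 to 0.999, and among them were Cox6a2, Mybphl, Ckmt2, Mb, Csrp3, Corin, Slc17a7, Ankrd1, Ttn, Lmod2 and Mypn. Cox6a2 and Ckmt2 encode muscle mitochondrial proteins, Mb encodes myoglobin, and Csrp3, Ttn, Lmod2 and Mypn encode parts of the sarcomere or its Z-disc. Of 17172 genes compared, 99 had r of at least 0.9 and 42 of at least 0.95. Among the members, r was 0.964 for Nppa, 0.499 for Myh7 and between 0.992 and 0.998 for the other 8, each of which had a share in the mean. Without the 2 AngII+2W libraries r was 0.834 for Nppa and 0.844 for Myh7.

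A further 86 genes were fixed as lists of atrial, ventricular, sarcomere, calcium handling and excitation, transcription factor, and muscle energy genes. Of these, 83 passed the filter and were tested. They are used in heart muscle but not all in it alone, and smooth muscle also uses Myocd and Atp2a2, for example. In AngII 10 of the 83 were called, all lower, against 5.1% of all genes, in AngII+2W 0 (0% of all genes) and in AngII+3W 0 (0.285%). Over the 83 genes the log2 fold change had a median of -1.48 (AngII), -2.22 (AngII+2W) and -0.11 (AngII+3W), and it was negative in 78, 80 and 50 of them, respectively. At an unadjusted p below 0.05 there were 20 in AngII (20.2% of all genes), 62 in AngII+2W (10.7%) and 13 in AngII+3W (12.5%). DESeq2 called 13 in AngII (9.12% of all genes), 22 genes in AngII+2W (2.06%) and 7 genes in AngII+3W (3.35%). The share of all genes called without each library is not given here, so the counts below are not read as a result. The AngII count rests on single libraries. It was 1 without CTRL replicate 1, 2 without AngII replicate 1, 0 without AngII replicate 2, 6 without either AngII+2W library, and 21 and 22 without replicate 1 and 2 of AngII+3W. The AngII+2W count of 0 became 45 and 48 without replicate 1 and 2 of AngII+3W. The AngII+3W count of 0 became 4 without CTRL replicate 2 and 2 without AngII+3W replicate 2.

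The 10 genes called in AngII were Myom1 and Xirp1, of the sarcomere's M-band and of muscle adhesion, Jph2, Cacna1c, Cacnb2 and Kcnh2, of calcium handling and ion channels, the transcription factors and cofactor Gata6, Srf and Myocd, and Hspb7, a small heat shock protein. Myom1 was at 780.1 and 510.3 CPM (CTRL), 131 and 141 CPM (AngII), 241 and 236 CPM (AngII+2W), and 368 and 283 CPM (AngII+3W). In AngII+2W replicate 2, where Myh6 was at 0.0667% of its level in CTRL replicate 1, Myom1 was at 30.2%. Myocd, the cofactor of serum response factor in heart and smooth muscle, was at 203 and 94.1 CPM (CTRL), 27.9 and 33.8 CPM (AngII), 61.9 and 55.4 CPM (AngII+2W), and 41.3 and 59.3 CPM (AngII+3W). Its low level in AngII+3W replicate 1 stood beside the highest cardiac level of the 8 libraries.

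The level left in AngII+2W replicate 2, as a percentage of that in CTRL replicate 1, sorted the 83 genes. It was under 1% for 16 genes, from 1 to 10% for 19, from 10 to 50% for 27 and at least 50% for 21. The 10 genes called in AngII retained 17.2 to 53.5%, with a median of 41.4%, and their r with the mean of the members was 0.221 to 0.792. The other 73 genes had a median of 10.9% and a median r of 0.870. Both measures use the same libraries as the choice of the members, and no test was made of them. Genes that follow the members also share their wide spread between replicates, which makes a call less likely. In AngII the SE of the log2 fold change was 1.57 for Ttn and 0.231 for Myom1. The split by calls is therefore not read as a result. Ttn, the giant elastic protein of the sarcomere, was at 0.141%, Ryr2, the calcium release channel, was at 693 CPM in CTRL replicate 1 and 76.7 CPM in AngII+2W replicate 2, and Atp2a2, the calcium pump that smooth muscle also uses, was at 2186 and 342 CPM.

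**Figure D4:**
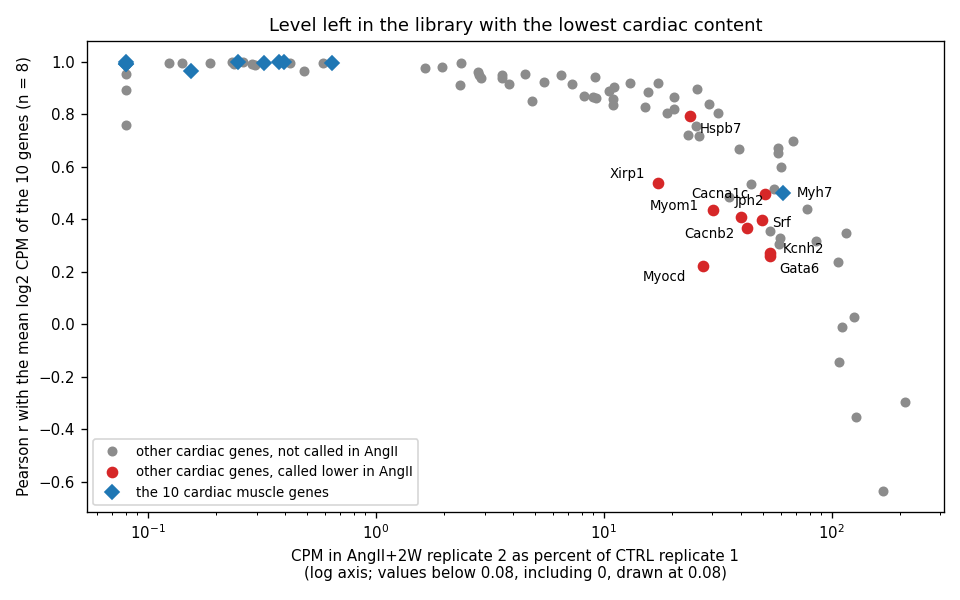
Each point is a gene: across, its CPM in AngII+2W replicate 2 as a percentage of that in CTRL replicate 1 (log axis, with 3 members and other genes below 0.08 drawn at that edge), and upwards, its Pearson r with the mean log2 CPM of the 10 genes over 8 libraries. Of the members (diamonds) only Myh7 lies to the right, and the 10 other cardiac genes called lower in AngII (red) lie between 17.2 and 53.5%.

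Smooth muscle genes, the defining markers of the aortic wall, were present in every library. Of 15 tested, 12 passed in AngII, all lower, against 5.1% of all genes in either direction, 0 passed in AngII+2W (0% of all genes) and 7 passed in AngII+3W, all lower (0.285%). In AngII+2W 13 had an unadjusted p below 0.05 (10.7% of all genes) and DESeq2 called 10 (2.06%). They summed to 1.27 and 1.02% of counts (CTRL), 0.260 and 0.334% (AngII), 0.560 and 0.522% (AngII+2W), and 0.275 and 0.491% (AngII+3W). Acta2 had an r of 0.104 with the mean of the members, and over the list r ran from -0.048 (Lmod1) to 0.797 (Des). It was at most 0.106 for all but Actg2 (0.397), Tpm2 (0.401), Pcp4l1 (0.601) and Des. Without the 2 AngII+2W libraries r was 0.347 for Acta2 and ran from -0.015 (Smtn) to 0.964 (Des). Des, the intermediate filament gene desmin that striated muscle also uses, was highest in the library with the highest cardiac share. It was at 108 and 75.8 CPM (CTRL), 53.2 and 31.6 CPM (AngII), 28.3 and 28.5 CPM (AngII+2W), and 188 and 26.2 CPM (AngII+3W). The smooth muscle counts without each library have no share of all genes beside them and are not read as a result. The count in AngII was 1 without CTRL replicate 1, 4 without AngII replicate 1 and 0 without AngII replicate 2, and the count in AngII+3W was 4 without CTRL replicate 2, 11 without AngII+3W replicate 2 and 0 when any other library was left out.

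AngII+3W replicate 1 stood apart in more than its cardiac genes. Skeletal muscle genes summed to 0.417% of its counts and to between 0.00443 and 0.0154% elsewhere, and Myh1, a fast skeletal myosin heavy chain, had 19381 counts there and 8 to 165 in the other libraries. Of 21 genes of the skeletal list, 0 were at 0 in that library, which also held in CTRL replicate 2 and AngII+2W replicate 1. Neb, the skeletal thin filament protein nebulin, had 12747 counts there and 110 to 674 elsewhere, and Atp2a1, the fast skeletal calcium pump, had 9853 and 6 to 59. Ttn, which both kinds of striated muscle use, had 479 counts per 100 Myh6 counts in that library and 248 to 313 in the other 6 of the 7. The lung list summed to 0.0119% there and to at most 0.00043% elsewhere, which came from 2267 counts of Scgb1a1, a secreted protein of airway cells, while Sftpc was at 0. Mitochondrial genes took 18.3% of its counts and 8.15 to 13.5% of those of the other libraries. The part of these tissues in the result of the cardiac genes was not tested. CTRL replicate 1 had a cardiac share close to that of AngII+3W replicate 1 and a skeletal share of 0.0154%.

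**Figure D5:**
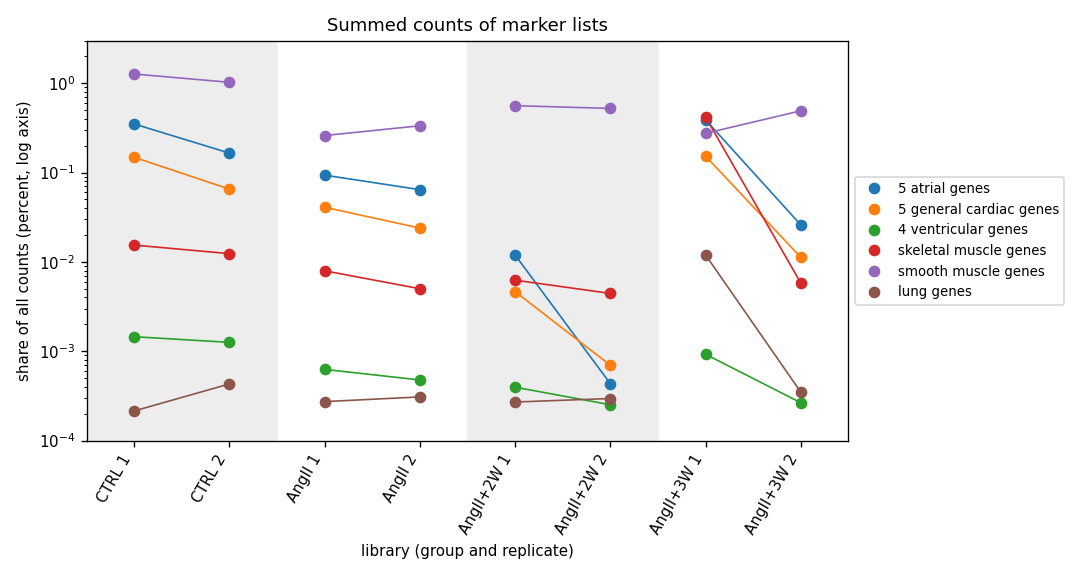
Share of all counts (percent, log axis) held by the 5 atrial genes, the 5 general cardiac genes, 4 ventricular genes and lists of skeletal muscle, smooth muscle and lung genes in each library, with a line between replicates. The cardiac shares fall from 0.350 and 0.148% in CTRL replicate 1 to 0.000432 and 0.000694% in AngII+2W replicate 2, while the smooth muscle share stays between 0.260 and 1.27%.

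Fat genes were abundant in every library and did not sort them as the cardiac genes did. The brown fat list held 0.120 to 0.290% of counts and the white fat list 0.566 to 0.876%, with their highest shares in AngII replicate 1.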

How the data were processed

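Total RNA of 8 aortic pools was depleted of ribosomal RNA and sequenced in 1 lane. The authors estimated transcript abundance with Salmon against Ensembl release 101 (GRCm38.p6) and added them up per gene. The values as deposited are expected counts, all whole and not normalized. Of its 35896 genes, 11469 were at 0 in every library. Here genes were filtered with filterByExpr and tested with edgeR 4.0.16 in R 4.3.3 (TMM, quasi-likelihood F test, all 8 libraries in 1 model, 4 residual degrees of freedom), with Benjamini-Hochberg adjustment over 17182 genes and a threshold of 0.05. P-values are two-sided. The SE of a log2 fold change is its size divided by the square root of F. Totals of 18130441 to 21498200 counts put the floor of 3 counts at 0.140 to 0.165 CPM. The test was tested on simulated data. The members and lists were chosen with earlier results of these data known. Genes named are the members, the 3 highest of each list by mean CPM, up to 6 of each list past the threshold, the natriuretic list, Acta2, Myocd and Srf, and the 12 genes most like the members. Some genes that this rule gives are not reported here. Chamber markers, the skeletal and lung genes, Des and the smooth muscle genes given only by r, Ryr2, Atp2a2 and Mb were named after their values were seen where this rule does not give them. Alternatives were DESeq2's size factors, library totals, genes with at least 1 count or at least 10 counts in every library, DESeq2 1.42.0, only the 2 groups compared, a replicate block, the cardiac level as a covariate, and leaving out each library. Similar transcripts were found with blastn 2.17.0 among GENCODE transcripts, which also gave positions and lengths.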

Additional observations from a re-analysis of the deposited data

Results flagged for a closer look

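Among the members and the 83 other cardiac genes tested, 2 differed between treated groups by the direct comparison of AngII+3W with AngII. In it 276 of 17182 genes (1.61%) passed the threshold, so the count of 2 is not read as a result about cardiac genes. Neither followed the members closely, with an r of 0.434 for Myom1 and 0.270 for Kcnh2. Myom1 was higher in AngII+3W, with a log2 fold change of 1.26 (SE 0.225, edgeR FDR 0.0436), from 131 and 141 CPM in AngII to 368 and 283 CPM in AngII+3W, and both AngII+3W libraries were above both AngII libraries. Kcnh2, a potassium channel gene, was also higher, with a log2 fold change of 1.02 (SE 0.165, edgeR FDR 0.0360), from 12.7 and 13.2 CPM to 23.3 and 29.2 CPM. The higher Kcnh2 value was that of AngII+3W replicate 2, the library with the lower cardiac share.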

How the results depend on the processing

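With 2 libraries in a group, counts of calls changed when single libraries were left out, and those counts are not given. The share of all genes called differed between settings too and is not given for most of them. A count of listed genes is therefore not read as a result about those genes. For the members, DESeq2 called 6 in AngII+2W (2.06% of all genes) and a fit of only the 2 groups compared called 6 in AngII. For the other cardiac genes, DESeq2 called 22 in AngII+2W and 7 in AngII+3W, a fit of only the 2 groups called 31 in AngII, and both filters (at least 1 count, at least 10 counts in every library) called 2 in AngII+3W. Leaving out 1 library gave 0 to 22 (AngII), 0 to 48 (AngII+2W) and 0 to 4 (AngII+3W). For the smooth muscle genes, DESeq2 called 10 in AngII+2W and 12 in AngII+3W, where library totals and the fit of only the 2 groups called 0 and the cardiac covariate left 1, and leaving out 1 library gave 0 to 15 in AngII, 0 to 11 in AngII+2W and also 0 to 11 in AngII+3W. With the cardiac covariate 10 of all genes passed in AngII+3W, against 49 without it. Log2 fold changes there were -2.60 (Acta2), -1.58 (Myocd) and -0.96 (Srf) with the covariate and -2.56, -1.56 and -1.03 without it. Their edgeR FDR was 0.0786, 0.167 and 0.0837 with it, and 0.0455, 0.115 and 0.0547 without it. The covariate was the mean log2 CPM of the members, which were chosen on these same libraries. Nothing is concluded from this fit. Without 1 library, median log2 fold changes in AngII+2W ran from -10.09 to -4.44 (atrial) and -7.65 to -4.47 (general). In AngII+3W they ran from -3.37 to 0.61 (atrial), -3.18 to 0.57 (general) and -1.67 to 0.57 (other cardiac genes). Reversals were seen only without 1 library and only in AngII+3W, where the log2 fold change ran from -3.38 to 0.66 for Myh6, -3.21 to 0.66 for Myl7, -3.37 to 0.45 for Myl4, -3.76 to 0.37 for Nppa, -3.24 to 0.61 for Sln, -3.53 to 0.42 for Actc1, -3.18 to 0.66 for Tnnt2, -3.40 to 0.57 for Tnni3, -3.05 to 0.61 for Mybpc3 and -0.65 to 0.54 for Myh7. Same-numbered libraries did not deviate together in every pair of groups (correlations of -0.045 to 0.248), and the main fit did not pair them. The correlation was 0.209 for CTRL with AngII+2W and 0.248 for AngII with AngII+3W. Whether some same-numbered libraries were handled together was not tested. With the replicate block 0 smooth muscle genes passed in AngII+3W, 12 other cardiac genes in AngII and 0 members in any comparison. The causes were not tested.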
